A study of Mus musculus with 6 samples.

Results

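The genes of the NRF2, glutathione and thioredoxin defence were examined in immortalized mouse fibroblasts. The list held 50 genes, chosen by symbol, and all 50 were among the 19078 genes of the expression table. Poly(A)-selected RNA had been sequenced from 3 libraries of pooled *Ms4a15*-overexpressing cells (*Ms4a15* OE) and 3 libraries of control cells, and nothing in the labels said whether the libraries of a group came from separate cultures. Both lines derive from conditional *Gpx4* -/- embryonic fibroblasts that express Cre-ERt2 and carry the CRISPR activation system. *Ms4a15* OE cells received a guide that raises *Ms4a15* and are a pooled line rather than a clone, while control cells received an empty lentivirus and are given the genotype wild type in the labels. The labels give no treatment for either group.

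The values used here are the authors' mean normalized read counts over all 6 libraries. This mean mixes both groups, so it shows how strongly each gene was expressed in these fibroblasts and cannot show whether a level differed between *Ms4a15* OE and control cells. No comparison between the groups was made, and no spread between libraries can be given. *Ms4a15* itself had a mean of 638 normalized counts over both groups, which does not check the labels. Genes seen by 1 read in 1 library placed the size factors of the libraries between 0.887 and 1.14, a 1.28-fold range, so the libraries were of similar depth. The means of all genes summed to 4.1e+07 normalized counts per library. Counting error alone was 0.224% of the mean for *Prdx1* and 6.71% for *Gsta3*, the member with the fewest reads. Of the fibroblast markers all 10 were in the table. In normalized counts per kb of transcript, *Vim* was at 52501, *S100a4* at 25817, *Col1a2* at 25272, *Fn1* at 13739 and *Col1a1* at 11295. The others were lower, with *Col3a1* at 738, *Thy1* at 629, *Pdgfrb* at 397, *Pdgfra* at 40.6 and *Dcn* at 6.88. The 6 epithelial markers did not exceed 5.56 per kb, the 4 immune markers in the table did not exceed 405 (*Lyz2*), and the 4 endothelial markers did not exceed 26.7 (*Cdh5*).

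NRF2, encoded by *Nfe2l2*, is a transcription factor that KEAP1 holds in the cytosol and delivers to degradation. When electrophiles or oxidants modify KEAP1, NRF2 escapes, enters the nucleus, pairs with a small MAF protein and binds antioxidant response elements, from which BACH1 can displace it. Its target genes make glutathione from imported cystine, keep thioredoxin and glutathione reduced with NADPH, and detoxify peroxides, quinones and heme. In fibroblasts these systems set much of the supply of glutathione on which the lipid peroxidase GPX4 depends. GPX4 is a central enzyme among those that restrain ferroptosis.

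The antioxidant response element has the core TGACNNNGC. This core was searched on both strands of the RefSeq promoter windows, which run from 250 bases before to 50 bases after each annotated start. A window was found for 44 of the 50 genes, which had 60 windows in all. *Hmox1*, *Gclc*, *Gsr*, *Prdx6*, *Gsta4* and *Sod3* had none. Of the 15 cores found, 6 lay outside every annotated exon and are shown here. *Txnrd1* has more than 1 annotated start, and its core lies inside the gene, in the window of the start at 82859206. All 6 cores are upstream of the start of their own window, in sequence that no annotated exon covers. They are written 5′ to 3′ on the strand of the gene, with the core in capitals, and a core on the opposite strand therefore reads as GCNNNGTCA.
*Prdx1* (GRCm38.p6 chr4:116685456-116685484, plus strand): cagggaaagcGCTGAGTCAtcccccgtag
*Gclm* (chr3:122245413-122245441, plus strand): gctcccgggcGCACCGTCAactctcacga
*Txnrd1* (chr10:82859104-82859132, plus strand): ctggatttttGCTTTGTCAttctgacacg
*Sod1* (chr16:90220696-90220724, plus strand): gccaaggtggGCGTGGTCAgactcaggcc
*Ugdh* (chr5:65435956-65435984, minus strand): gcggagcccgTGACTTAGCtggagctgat
*Gsta3* (chr1:21240454-21240482, plus strand): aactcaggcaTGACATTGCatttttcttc

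The core was present in 14 of the 60 windows, or 23.3% (95% Wilson interval 14.4% to 35.4%). Among all 32851 windows of the same length 12.4% held it, and among the 10789 windows whose gene averaged 10 or more normalized counts the share was 14.4%. The share in the defence windows exceeded that of expressed genes, with the lower bound of its interval at the latter value. The list was assembled from NRF2, its partners and known genes of its pathway, so a higher share describes the list and is no independent result. Base composition of the defence windows differed little from that of expressed genes, with a median GC content of 60.2% against 60.7%. The median of all windows was 52.7%. Counted by gene, 14 of 44 defence genes (31.8%, interval 20.0% to 46.6%) held the core in at least 1 window, against 14.0% of the 27025 genes with a window and 17.2% of the 8403 of them that averaged 10 or more normalized counts. The median GC content was 58.7% for the 44 genes and 60.8% for those expressed genes. Windows of 1 gene can overlap, and these intervals treat them as separate. A stricter form, the core followed by an A, occurred in 3 of the 60 windows (5.0%, interval 1.71% to 13.7%) and in 3.04% of all windows, which could not be told apart at this number of windows.

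The cores were spread over the branches. They were found in 3 of 6 genes of the NRF2 group (*Nfe2l2*, *Mafg* and *Mafk*), 1 of 6 quinone and heme genes (*Ugdh*), 1 of 3 glutathione synthesis genes (*Gclm*), 2 of 8 thioredoxin genes (*Txnrd1* and *Srxn1*), 1 of 5 peroxiredoxins (*Prdx1*), 3 of 10 glutathione transferases (*Gsta3*, *Gstm5* and *Mgst1*), 1 of 2 superoxide dismutases (*Sod1*) and 2 of 4 NADPH genes (*G6pdx* and *Pgd*). *Ugdh* was the gene with a pair of cores. Of the 15 cores 5 read along the gene and 10 on the opposite strand, and 11 began within 150 bases upstream of the start. *Txnrd1*, *Gsta3* and *Pgd* had the core followed by an A. The *Prdx1* core also contains TGACTCA, the site of AP-1 factors, so the same letters fit both motifs. The search used letters alone. A match is not a shown binding site, and enhancers outside the windows were not searched.

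**Figure D1:**
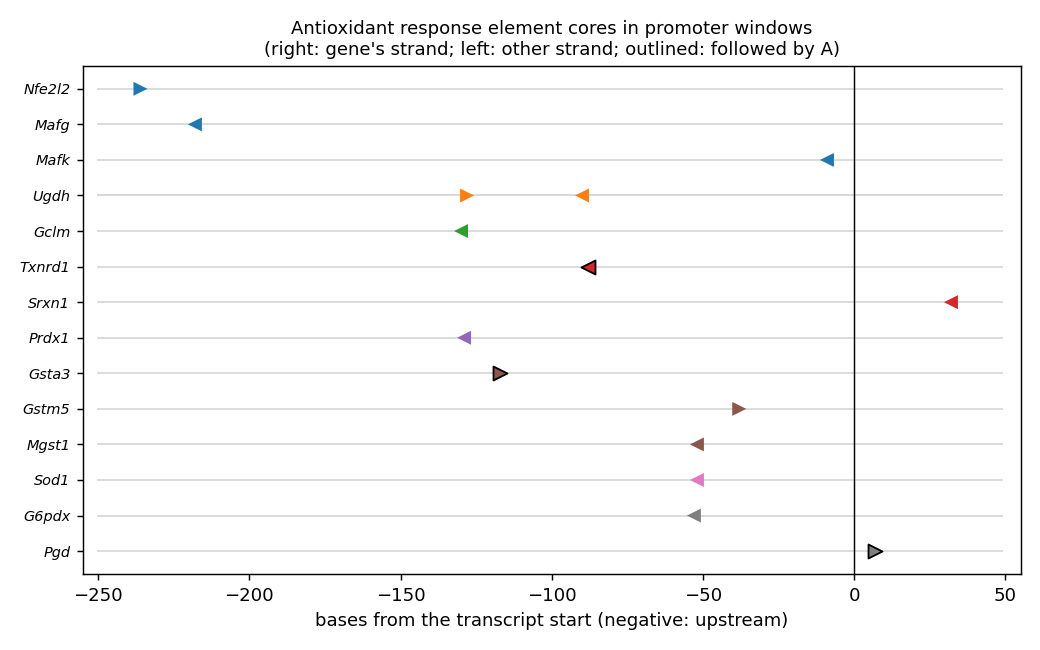
Positions of the antioxidant response element cores in the promoter windows of the 14 genes that hold one, in bases from the RefSeq transcript start (horizontal axis). Each arrowhead is 1 core, pointing right when it reads along the gene and left when it lies on the opposite strand, outlined in black when followed by an A, and colored by branch; 11 of the 15 begin within 150 bases upstream of the start and 2 lie downstream of it.

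None of the 50 genes averaged fewer than 10 normalized counts, and of all 19078 genes 12914 averaged 10 or more. Because a long transcript yields more reads than a short one, levels are compared per kb of the longest protein-coding transcript. On this scale the median defence gene had 1617 normalized counts per kb, against 168 for the 16169 genes of the table whose length could be found. The members ranged from 25.4 (*Gsta3*) to 20723 (*Txn1*), an 816-fold range. In the top 10% of genes were 22 of the 50, and 4 were below the median gene. Ranked on the mean without length the count was also 22, of which 20 were shared, as *Gclm* and *Slc7a11* entered and *Gstp1* and *Prdx5* left. When genes averaging fewer than 10 normalized counts were left out of the ranking, the count was 20, without *Nfe2l1* and *Nfe2l2*. Together the 50 genes took 0.717% of all normalized counts. The list was assembled from known pathway genes, many of them housekeeping enzymes, so a high median describes the list and is no sign of a response.

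**Figure D2:**
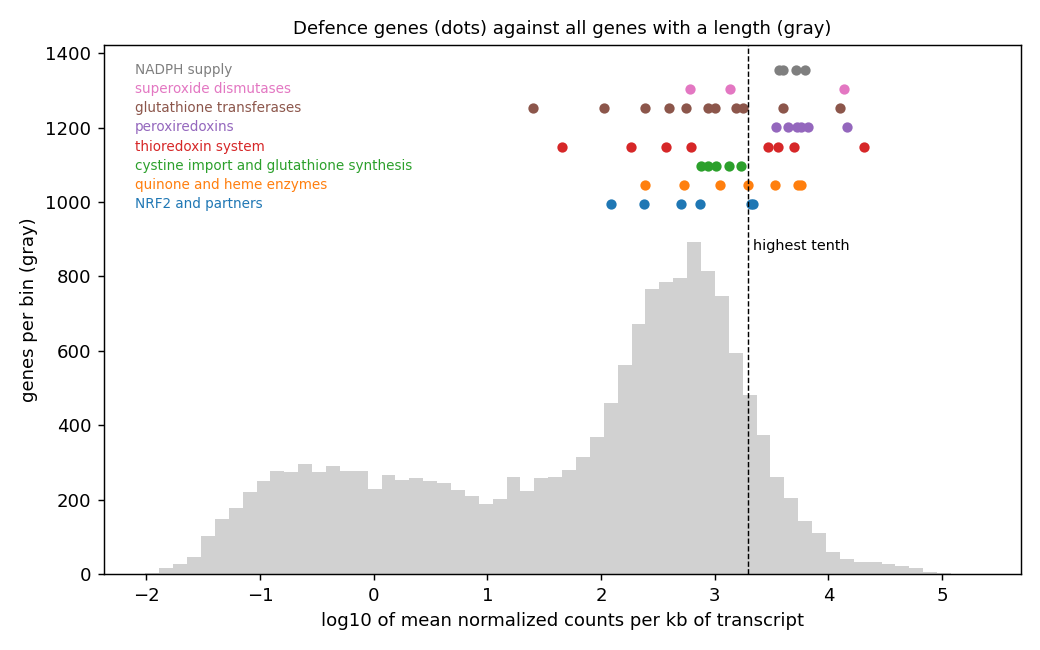
Distribution of log10 mean normalized counts per kb for the 16169 genes with a length (gray, genes per bin), with the defence genes as dots in 1 row per branch (the height of a row has no meaning) and the dashed line at the lower edge of the top 10%. All 6 peroxiredoxins and all 4 NADPH genes sit to the right of the line, and the glutathione transferases span the widest range, from 25.4 to 12762 per kb.

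The peroxiredoxins, thiol enzymes that reduce hydrogen peroxide and other peroxides, were the most abundant branch. Their 6 genes held 24.7% of the counts of the 50, and all 6 were in the top 10% of genes per kb with each of the 3 lengths (5 of 6 on mean counts, without *Prdx5*), with a median of 5483 per kb. *Prdx1*, the main cytosolic member, had 14529 normalized counts per kb, and its mean of 33329 was the largest of all 50 genes. *Prdx4*, which works in the endoplasmic reticulum, followed at 6651, with the cytosolic *Prdx2* at 5688. *Prdx6*, a peroxiredoxin that can reduce phospholipid hydroperoxides, was at 5277, the mitochondrial *Prdx3* at 4426 and *Prdx5* at 3483. *Prdx1* stood 2.18-fold above *Prdx4*, and neighboring pairs below it differed by 1.08-fold to 1.27-fold. The spacing depended on the length, since with the union of exons *Prdx1* was 3.50-fold above *Prdx4*, *Prdx3* was 2.15-fold above *Prdx5*, and *Prdx3* lay above *Prdx6*. On the opposite strand, *Prdx5* shares 19.1% of its exon bases with *Trmt112*, and *Prdx2* shares 11.5% with *Junb* and *Rnaseh2a*.

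The thioredoxin system held 19.8% of the counts and spanned a 461-fold range, which was 706-fold with the union of exons. *Txn1*, cytosolic thioredoxin, was the highest of the 50 genes at 20723 per kb, 5.78-fold above its mitochondrial counterpart *Txn2* at 3583 (11.9-fold with the union of exons). The reductases that keep them reduced were further apart. Cytosolic *Txnrd1* had 4956 per kb (mean 17951), and mitochondrial *Txnrd2* had 44.9 (mean 129), a 110-fold difference in level that was 86.3-fold with the union of exons as length. *Txnrd3*, a further thioredoxin reductase gene outside the list of 50, was at 638 (mean 1809). *Srxn1*, sulfiredoxin, which repairs overoxidized peroxiredoxins, was at 2952. The glutaredoxins, which use glutathione to reduce mixed disulfides, were lower, with *Glrx* at 613 and *Glrx2* at 182. With the union of exons they were at 150.1 and 73.1, and *Glrx* then lay below *Txnip*, as it did at 195 with the longest annotated transcript. *Txnip*, which binds and inhibits thioredoxin, was at 376, so *Txn1* was 55.2-fold above its inhibitor. That difference was 61.0-fold with the union of exons and 20.5-fold by mean counts. The exons of *Txnip* overlap the antisense gene *Gm15441* over 19.4% of their bases.

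*Txnrd1* and *Txnrd2* encode selenoproteins that read a TGA codon near their carboxyl end as selenocysteine, the residue that takes part in catalysis. The coding ends are shown to locate that codon, which is in capitals and is followed by 1 more codon and the stop codon.
*Txnrd1* (GRCm38 chr10:82896037-82896039 for the codon, plus strand): gacatcctccagtctggctgcTGAggttaa
*Txnrd2* (chr16:18477772-18477774 for the codon, plus strand): gagcctactgtgactggttgcTGAggctaa
In the transcripts read, the selenocysteine codon was number 612 of 614 in *Txnrd1* and number 526 of 528 in *Txnrd2*. In both, the codon before it is tgc, for cysteine, and the codon after it is a glycine codon.

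NADPH is the electron source of both reductase systems. The 4 pentose phosphate genes listed for its supply made the second branch with every gene in the top 10%. This does not hold for the whole pathway, as *Pgls* at 661 per kb and *Rpia* at 856, outside the list of 50, were not in the top 10%. *Pgd*, 6-phosphogluconate dehydrogenase, was at 6248 per kb and *G6pdx*, glucose-6-phosphate dehydrogenase, at 5156. These are the enzymes that reduce NADP+ in this pathway, and their means were nearly equal, at 13857 and 13673. *Pgd* was the lower of the pair at 2149 against 4439 when the union of exons was the length. The non-oxidative enzymes transaldolase (*Taldo1*, 4011) and transketolase (*Tkt*, 3711) lay close behind. The 4 genes took 15.3% of the counts of the 50, and the highest was 1.68-fold above the lowest, or 2.73-fold with the union of exons.

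**Figure D3:**
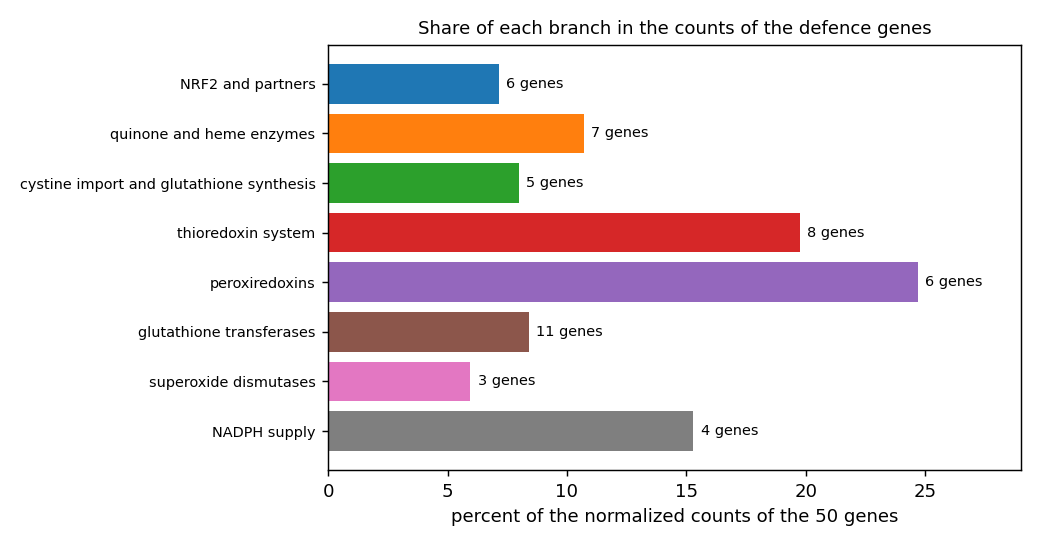
Percent of the summed normalized counts of the 50 defence genes taken by each branch (horizontal bars from 0, number of genes beside each bar), from the authors' means over all 6 libraries. The peroxiredoxins take 24.7% with 6 genes and the thioredoxin system 19.8% with 8, while the 11 glutathione transferases take 8.42%.

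Among the regulators, *Nfe2l2* was the highest at 2181 per kb, next to *Nfe2l1* at 2065, a related factor of the endoplasmic reticulum known for control of proteasome genes. The order of this pair depends on the length used, since *Nfe2l1* was 1.24-fold above *Nfe2l2* with the union of exons. *Keap1*, the adaptor that brings NRF2 to the ubiquitin ligase, was at 500.5 per kb, so *Nfe2l2* RNA exceeded it 4.36-fold. Of the small MAF partners *Mafk* was at 747 and *Mafg* at 240.3. *Bach1*, the repressor that competes for the same elements, was the lowest of the 6 listed regulators at 121, 18.0-fold below *Nfe2l2*. That difference was 12.4-fold with the union of exons and 7.60-fold by mean counts. NRF2 is controlled mainly through its stability, so these RNA levels do not give the activity of the protein.

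Among the quinone and heme enzymes, *Nqo1*, *Hmox1* and *Ugdh* were in the top 10% of genes. With the union of exons or the longest annotated transcript *Ugdh* was no longer in it. *Nqo1*, the quinone reductase most used as a readout of NRF2, had 5710 per kb. *Hmox1*, the inducible heme oxygenase, had 5451 and was 4.91-fold above the constitutive *Hmox2* at 1110. *Hmox2* shares 40.2% of its exon bases with *Cdip1* on the opposite strand. *Ugdh*, which makes the UDP-glucuronate used in conjugation, was at 3399 and *Blvrb*, a biliverdin reductase, at 1957. These are the values most affected by length in the branch, as the union of exons gave 1284 for *Ugdh* and 723 for *Blvrb*. *Ephx1*, microsomal epoxide hydrolase, was at 532 and *Osgin1*, an oxidative stress induced growth inhibitor, at 245.

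Cystine import and glutathione synthesis were the branch of 5 genes whose highest level was 2.21-fold above the lowest, a range that widened to 5.68-fold with the union of exons and 3.22-fold with the longest annotated transcript. On the coding length no member was in the top 10%, whereas *Gsr* was with the union of exons, and *Slc7a11* and *Gclm* were when ranked on mean counts. *Gsr*, the reductase that regenerates glutathione, was at 1685. *Gclc* and *Gclm*, the catalytic and modifier subunits of the rate-limiting glutamate-cysteine ligase, were at 1336 and 1015, so the modifier subunit had 0.760 of the level of the catalytic one per kb, while by mean counts, without length, the ratio was 1.24. *Gss*, glutathione synthetase, was at 868 and *Slc7a11*, the cystine importing subunit of system xc-, at 763. With the union of exons *Gss* fell below *Slc7a11*, at 288 against 506. *Slc7a11* had the largest mean of the branch, 7041 normalized counts, on the longest transcript of all, 9223 bases. *Slc3a2*, the heavy chain with which it pairs, was at 4817 per kb, and *Slc7a11* had 0.158 of that level, or 0.520 by mean counts (13549 for *Slc3a2*). *Slc3a2* also serves other transporters.

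The glutathione transferases were the most uneven branch, with a 503-fold range over 11 genes (875-fold with the union of exons and 963-fold with the longest annotated transcript). *Gsto1*, an omega class enzyme with thioltransferase activity, was at 12762 per kb and *Gstp1*, the pi class enzyme, at 3997. No other member was in the top 10%. The mu class genes followed, with *Gstm2* at 1775, *Gstm5* at 864 and *Gstm1* at 555, and these 3 genes lie on chromosome 3 within 122 kb of each other. Of the microsomal enzymes *Mgst2* was at 1549, *Mgst1* at 997 and *Mgst3* at 397. The value of *Mgst2* rests on a coding transcript of 603 bases, and it was 252 with the union of exons and 333 with the longest annotated transcript. At the low end were *Gstt1* at 244, *Gsta4* at 106 and *Gsta3* at 25.4. Low and high members thus occurred within the same family, and their counts differed by 408-fold between *Gsto1* and *Gsta3* even before length was taken into account.

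Near-identical copies can divide or drop reads. The neighbor *Gstp2* shares 52.8% of the 100-base stretches of *Gstp1* and had a mean of 5.92 normalized counts against 3282 for *Gstp1*, so the split between these copies is uncertain. In *Gstm1*, 7.73% of such stretches were shared with other genes. Of the 50 genes 42 shared no such stretch with another gene, and *Gstp1* was the member above 10%. Overlap of exons with a gene on the opposite strand was found for 11 members, and on the same strand for 5. The labels give the libraries as stranded, while the authors' published methods do not mention strand. The strand setting of the counting was not given in the sources used here, so reads from such pairs may not be fully separated.

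The 3 superoxide dismutases turn superoxide into hydrogen peroxide in different places. *Sod1*, the cytosolic copper and zinc enzyme, was at 13804 per kb, extracellular *Sod3* at 1358 and mitochondrial *Sod2* at 609.9. The lead of *Sod1* depends strongly on the length used. Its coding transcript has 641 bases, and on its longest annotated transcript, of 3970 bases, the level was 2229, or 3.65-fold above *Sod2* instead of 22.6-fold. By mean counts *Sod1* (8849) exceeded *Sod2* (3574) by 2.48-fold. The order *Sod1*, *Sod3*, *Sod2* was the same with all 3 lengths.

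**Figure D4:**
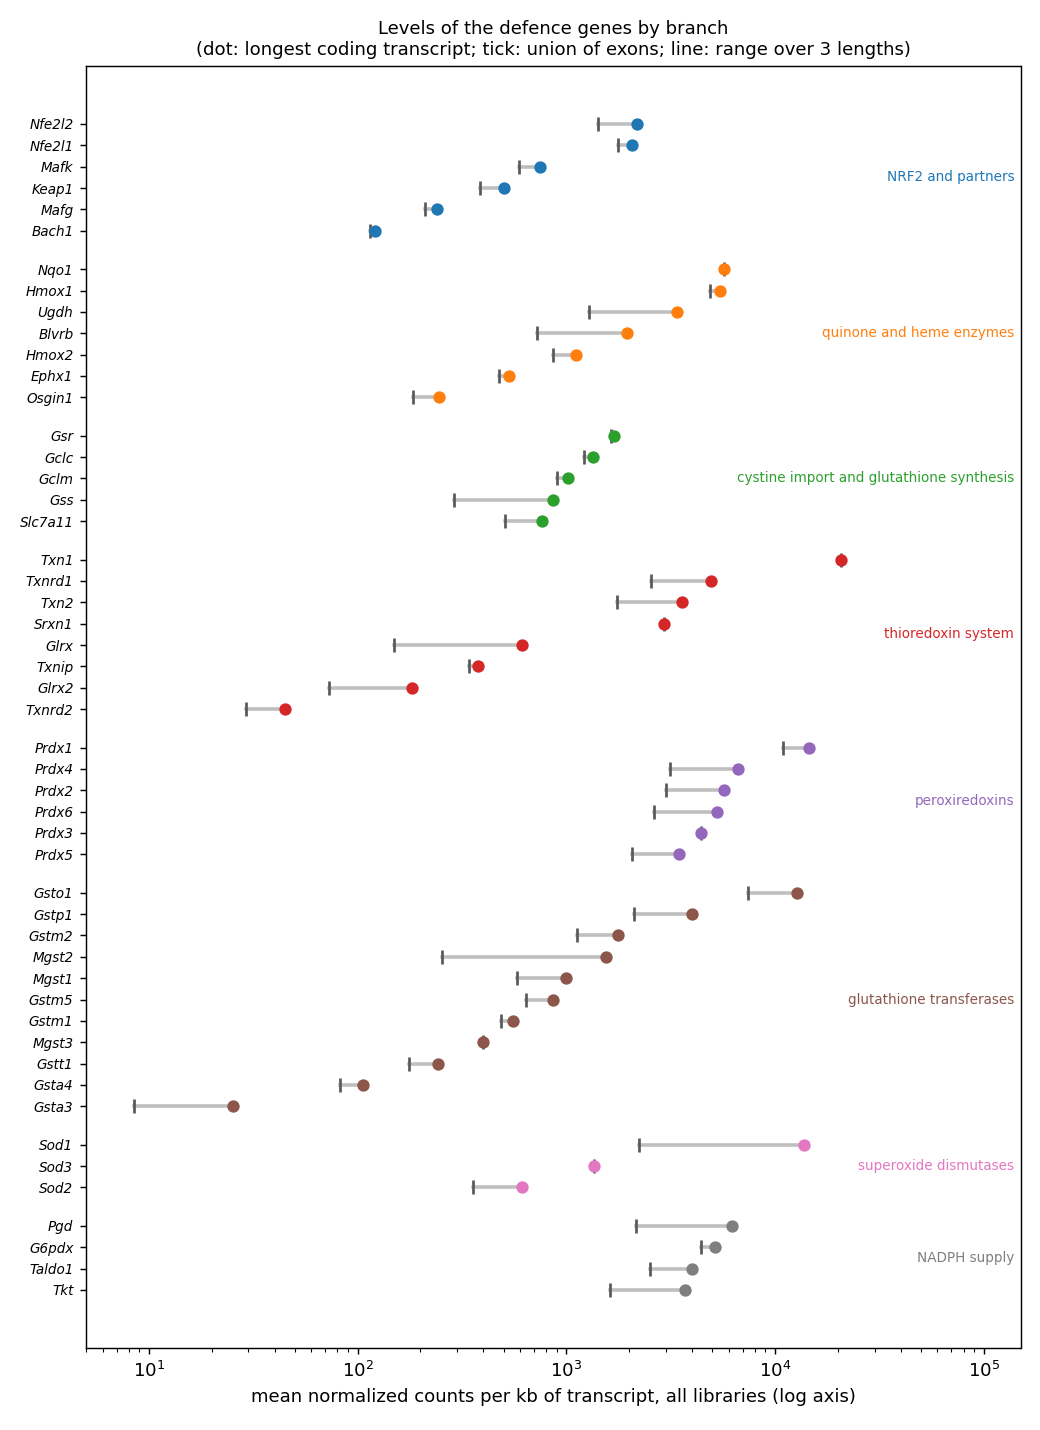
Mean normalized counts per kb for the 50 genes by branch (log axis). Each dot uses the longest protein-coding transcript, each tick the union of exons, and each gray line spans the values from 3 definitions of length, so that *Sod1* and *Mgst2* show the widest lines at 6.19-fold and 6.14-fold; there are no error bars because the mean over all libraries carries none.

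Within branches, 42 neighboring pairs can be formed in order of level, and 33 kept their order with both other lengths. For the remaining 9, such as *Nfe2l2* and *Nfe2l1* or *Prdx6* and *Prdx3*, no order should be read. For none of the 42 could the difference be set against a spread between libraries.

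The wider pathway was described with a further list of 43 genes, of which 41 were in the table. Their median was 638 per kb, 10 were in the top 10% of genes, and 8 had a mean under 10 normalized counts. No member had such a mean, while 12914 of all 19078 genes averaged 10 or more. Both lists were chosen with earlier results of these data known, so this contrast describes how the lists were drawn. *Sqstm1*, the autophagy receptor that binds KEAP1, was the highest of the 41 at 7793, with the ligase subunits *Cul3* at 2004 and *Rbx1* at 2315. *Gpx1* was at 4745 and *Gpx4* at 2532. *Gpx4* is conditional in these cells, and the pooled mean does not give its level in either group. *Cat*, catalase, was at 1850, and *Chac1*, which degrades glutathione, at 867. The other glutathione transferases were mostly low, as 5 of 12 had a mean under 10 and the highest, *Gsta1*, was at 825. *Gsto2*, next to *Gsto1* on chromosome 19, was at 118, which placed *Gsto1* 108-fold above it. Other NADPH sources were in the range of the 4 listed pentose phosphate genes or below, with *Idh2* at 3917, *Me1* at 2349, *Idh1* at 1022 and *Nnt* at 633.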

How the data were processed

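RNA-seq was described for 3 *Ms4a15* OE and 3 control libraries. Per the labels, stranded poly(A) libraries were sequenced paired-end, and the submitters' processing notes name TopHat, Cufflinks, Cuffdiff, HTSeq, DESeq2 and build mm10. The authors' published methods name STAR, HTSeq and DESeq2, so which aligner made the table is unsettled. The deposited signal used here is the authors' mean over 6 libraries of read counts normalized by DESeq2, 1 value per gene. The table's other columns hold the authors' comparison (fold changes, standard errors, p-values, adjusted p-values and direction) and were not used. The table holds no values of single libraries, so the planned edgeR test was not run.

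Members and lists were chosen with earlier results of these data known, and every member was to be named. Means were divided by transcript length from GENCODE M21 (GRCm38, the assembly of mm10). A length was found for 16169 of 19078 genes (84.8%, holding 97.3% of counts), 1493 of them through older symbols. The length first planned was the longest annotated transcript. It was replaced by the longest protein-coding transcript after the values had been seen, because the longest transcript of 14 members is not coding, and the planned choice is kept as an alternative with the union of exons. Size factors were read from 1267 genes whose mean equals 1 read in 1 library, and are not tied to groups. Promoter windows of 300 bases are from RefSeq (GRCm38.p6). Intervals are 95% Wilson intervals and cover counting error only. Shared stretches were counted over 100 bases of GENCODE transcripts. Scripts were tested on simulated data (Python 3.11.15, pandas 2.3.3, scipy 1.17.1).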

Additional observations from a re-analysis of the deposited data

How the results depend on the processing

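No paired analysis was possible because the table used gives each gene 1 mean over both groups, and for the same reason DESeq2, a low-count filter, a replicate block and leaving out replicates were not run. The number of defence genes in the top 10% was 22, and 20 to 22 under the 4 alternatives (mean counts without length, the union of exons, the longest annotated transcript and genes with a mean of at least 10), with 20 or 21 genes shared with the 22. The longest annotated transcript was the length first planned and the coding length was adopted after the values were seen. Recounting this number with other lengths or with that limit was decided after seeing the data. The share of defence promoter windows with a core was 23.3%, and 5.0% with the core followed by an A. Over all windows it was 12.4%, and became 14.4% for genes with a mean of at least 10, 3.04% with the core followed by an A and 14.0% when counted over genes, a count chosen after seeing the data. Levels per kb moved beyond a limit set from counting error for 44 of 50 genes with the union of exons (25 by over 1.5-fold, at most 6.19-fold). With the longest annotated transcript 14 moved beyond it (7 by over 1.5-fold). The same counts enter each level, so the limit only gauges the size of a change in length. The highest gene stayed the same in 6 of 8 branches. Depth limits the least abundant members, of which *Gsta3* rests on the fewest reads.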
